A study of Mus musculus with 54 samples.

Results

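The genes described here are those of cytosolic protein charging and of the synthesis of serine, one-carbon units, asparagine and proline, measured in the hearts and livers of mice with altered fidelity of mitochondrial translation. The members were taken by name and are 31 of the 54356 genes listed in each tissue: 20 cytosolic aminoacyl-tRNA synthetase genes and 11 genes of metabolic enzymes (Asns, Phgdh, Psat1, Psph, Shmt1, Shmt2, Mthfd1, Mthfd2, Mthfd1l, Aldh18a1 and Pycr1). RNA was sequenced from 3 control mice (Mrps12 +/+), 3 mice homozygous for the error-prone mutation of the mitoribosomal protein MRPS12 (Mrps12 ep/ep) and 3 mice homozygous for its hyper-accurate mutation (Mrps12 ha/ha). All 9 mice were C57BL/6, 20 weeks old and had been fed a high-fat diet (HFD) that supplied 42% of its energy as fat, so every group, the controls included, carries the effect of the diet. The mutations are in the germline and present in every cell, and whole hearts and whole livers were used. In such bulk samples fewer cells of a type and less RNA per cell cannot be told apart. Each value below is a normalised read count of 1 mouse, made by the authors, and mice are named by genotype and replicate number. The replicate numbers are given within each tissue, and a heart and a liver of equal number need not come from the same animal. The labels list 3 technical libraries for each mouse and tissue and each value was taken as their pool, although the study's methods speak of pooled biological replicates, so what was pooled in a column is not certain.

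Aminoacyl-tRNA synthetases join each amino acid to its tRNA, the step that supplies the cytosolic ribosome with substrate, and a group of them is held together with scaffold proteins in the multi-synthetase complex. Serine is made from a glycolytic intermediate by PHGDH, PSAT1 and PSPH, and the serine hydroxymethyltransferases pass its one-carbon unit to folate, which the MTHFD enzymes carry through the cytosol and the mitochondrion for purine, thymidylate and formate synthesis. Many of these genes are known targets of ATF4, the transcription factor of the integrated stress response, and their induction is a well-known response of heart and muscle to defective mitochondrial gene expression. The question the comparisons address is how the transcripts of this group stand in the hearts and livers of each mutant on the HFD.

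The hearts held 11202866 to 51480273 reads on genes and the livers 21238039 to 81518237. The shallowest heart was that of ha/ha mouse 2, in which 1 read was worth 3.02 normalised counts, and limma's array weights gave that heart a weight of 0.167, the lowest of the 9. The libraries matched their tissue. The summed cardiomyocyte markers were 2029000 to 3459000 in the hearts and at most 7699 in the livers. The summed hepatocyte markers were 4982000 to 6674000 in the livers and 1453 to 15830 in the hearts. In the hearts the cardiomyocyte sums were 2292000 to 2602000 in +/+, 2029000 to 2648000 in ep/ep and 2674000 to 3459000 in ha/ha mice. Every ha/ha heart thus lay above all other hearts, the lowest of them (2674000) only just. In the livers the hepatocyte sums were 4982000 to 5722000 in +/+, 6119000 to 6674000 in ep/ep and 6051000 to 6609000 in ha/ha mice. Every +/+ liver thus lay below all mutant livers. Some mice stood apart in markers of other cells. Erythroid markers summed to 464400 and 1412000 in the hearts of ha/ha mice 1 and 3, with 199200 in ha/ha mouse 2 and 91860 to 235600 in the 6 others, and all 5 of these markers were detected in the hearts. Atrial markers, all 6 detected, ranged from 1759 to 395400 over the hearts and were 4645 to 10810 in the ha/ha hearts. In the livers, acute phase transcripts summed to 1479000 in +/+ mouse 3 and to at most 209600 in the other livers, and the 6 skeletal muscle markers summed to 18390 and 19750 in the livers of +/+ mice 1 and 2 and to at most 215 elsewhere. Adipocyte markers summed to 17920 in the heart of +/+ mouse 3 and to 1124 to 2515 in the other hearts. Mesothelium markers summed to 311.9 to 519.1 in the ha/ha hearts and to 601.2 to 2433 in the 6 others. The part of these differences in the results was not tested. Both mutants carry point mutations, so the Mrps12 transcript (1078 ± 67.9, 1161 ± 117 and 1271 ± 165 in +/+, ep/ep and ha/ha hearts, mean ± SD, n = 3) does not check the genotype.

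Because many members are ATF4 targets, the promoters of the members were searched for the composite response element to which ATF4 binds with a C/EBP partner, spelled TGATGNAA, on both strands, in the window from 250 bases before to 50 bases after each RefSeq gene start (GRCm38.p6). Of the 31 members, 24 were in the RefSeq promoter table, and 7 of these 24 (29.2%) held the element: Iars, Aars, Gars, Tars, Yars, Asns and Pycr1. Among all genes with a promoter there, 1219 of 27025 (4.51%) held it, and of all promoters of the same length 1304 of 32851 (3.97%). Aars held it at 2 places, 112 bases before and 10 bases after the start. Below are the promoters of Asns, which is the textbook target, and of the 4 carriers (Aars, Iars, Tars and Pycr1) whose transcripts in ha/ha hearts are given one by one in the next paragraphs. Each is printed from 250 bases before to 30 bases after the start, 5′ to 3′ on the gene's own strand, with the element in capitals. In Aars, Iars and Tars the element lies on the opposite strand, so the capitals show its reverse complement. A match of letters is a description and no evidence of binding.
Asns (chr6:7693180-7693459, minus strand): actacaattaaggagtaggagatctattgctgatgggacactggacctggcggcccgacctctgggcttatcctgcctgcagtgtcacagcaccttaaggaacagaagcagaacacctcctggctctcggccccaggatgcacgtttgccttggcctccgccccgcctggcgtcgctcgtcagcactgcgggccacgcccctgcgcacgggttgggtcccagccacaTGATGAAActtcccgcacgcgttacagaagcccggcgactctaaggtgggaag
Aars (chr8:111033592-111033871, plus strand): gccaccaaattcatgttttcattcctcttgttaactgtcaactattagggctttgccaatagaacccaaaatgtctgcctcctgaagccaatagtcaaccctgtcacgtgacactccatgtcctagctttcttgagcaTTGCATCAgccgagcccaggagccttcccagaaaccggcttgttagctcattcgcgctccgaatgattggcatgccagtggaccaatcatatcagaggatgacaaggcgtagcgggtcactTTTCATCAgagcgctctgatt
Iars (chr13:49681880-49682159, plus strand): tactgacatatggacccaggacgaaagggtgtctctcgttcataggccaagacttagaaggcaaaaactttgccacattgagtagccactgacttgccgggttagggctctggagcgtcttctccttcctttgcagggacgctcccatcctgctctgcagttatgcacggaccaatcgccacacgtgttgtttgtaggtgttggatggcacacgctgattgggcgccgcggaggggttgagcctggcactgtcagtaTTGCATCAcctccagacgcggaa
Tars (chr15:11399629-11399908, minus strand): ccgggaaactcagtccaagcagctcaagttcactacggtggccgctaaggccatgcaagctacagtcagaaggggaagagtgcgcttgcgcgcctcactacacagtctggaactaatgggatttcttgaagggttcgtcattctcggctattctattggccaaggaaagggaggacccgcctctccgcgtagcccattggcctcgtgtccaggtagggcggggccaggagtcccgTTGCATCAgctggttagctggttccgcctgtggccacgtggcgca
Pycr1 (chr11:120643719-120643998, minus strand): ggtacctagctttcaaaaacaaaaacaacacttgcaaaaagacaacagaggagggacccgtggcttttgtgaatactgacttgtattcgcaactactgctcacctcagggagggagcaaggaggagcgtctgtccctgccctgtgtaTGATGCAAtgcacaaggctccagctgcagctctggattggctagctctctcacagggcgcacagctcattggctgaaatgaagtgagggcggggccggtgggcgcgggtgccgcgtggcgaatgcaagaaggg

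All 31 members were expressed in both tissues above the minimum mean of 10 normalised counts over the 9 mice. Levels can be compared between genes only per length, and on the scale of normalised counts per kilobase of exon the synthetases were evenly expressed, from 118 to 765 in the heart and from 201 to 1312 in the liver (mean of 9 mice). Kars, which charges both cytosolic and mitochondrial lysine tRNA, led in the heart with 765 per kilobase, followed by Gars with 709 and Nars with 673. The metabolic enzymes spread much wider. In the liver the folate enzymes Shmt2, Shmt1 and Mthfd1 stood at 4944, 2134 and 1996 per kilobase, above every synthetase, whereas Pycr1 was at 3.68, the lowest of the members. In the heart Mthfd1l was the lowest, at 9.77 per kilobase. The tissue tables were normalised separately, so levels of the heart and the liver are given side by side and not tested against each other.

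The synthetases also varied less from mouse to mouse than the enzymes did. The ratio of the highest to the lowest of the 9 mice had a median of 1.397 in the heart (1.172 to 2.076) and of 1.333 in the liver (1.07 to 1.853) over the 20 synthetases. For the 11 enzymes it had a median of 1.776 in the heart (1.359 to 4.512) and of 3.312 in the liver (1.367 to 24.7). The most even member was Hars in the liver, and the least steady was Asns in the liver, whose values ran from 31.1 to 768.

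In ha/ha hearts no member passed the threshold against +/+ hearts when all 9 mice were fitted, and the largest difference was in Mthfd1l, the mitochondrial formyl-tetrahydrofolate synthetase that releases formate, whose ha/ha mean was 3.0 times the +/+ mean. Among the synthetases, those for isoleucine, threonine, alanine, serine, histidine and asparagine (Iars, Tars, Aars, Sars, Hars and Nars) lay below all +/+ hearts in every ha/ha mouse, and that for cysteine (Cars) lay above. Of the 31 members 21 were fitted lower and 10 higher, with a median log2 fold change of -0.11 against -0.02 over all 16057 genes tested. By limma with Benjamini-Hochberg adjustment 0 members were called (0.0311% of all genes tested, lowest adjusted p of a member 0.144). At an unadjusted p under 0.05 there were 7 members, 22.6% of them, a share near the 19.7% of all genes, and limma-voom on the recovered reads called 0. The groups did not overlap in 7 members that lay lower (22.6%, against 10.0% of all genes) and in 2 that lay higher (6.45%, against 11.1%). With 3 mice against 3 the exact two-sided permutation test cannot give less than 0.1, which is its value for each of these 9 members.

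Within the multi-synthetase complex, Iars (chr13:49682100-49734267, plus strand, GRCm38), the isoleucyl-tRNA synthetase, had 3178, 2798 and 2682 in +/+, 2749, 2386 and 2995 in ep/ep and 1808, 2634 and 1941 in ha/ha mice. All 3 ha/ha hearts lay below the +/+ hearts, with a log2 fold change of -0.46 (SE 0.16, adjusted p = 0.214), and ha/ha mouse 2 was much nearer to the controls than the other two. Eprs (chr1:185363044-185428360, plus strand), which charges both glutamate and proline tRNA, had 4156, 3814 and 4140.0 in +/+, 3946, 3372 and 4118 in ep/ep and 2520.0, 4201 and 2463 in ha/ha mice. Mice 1 and 3 were the lowest of all 9 and mouse 2 the highest, so that the log2 fold change of -0.44 (SE 0.19, adjusted p = 0.251) is the mean of unlike hearts. Dars, the aspartyl-tRNA synthetase, was split in the same way, with 1677, 2594 and 1533 in ha/ha against 2626, 2333 and 2504 in +/+ hearts. Mars (chr10:127296221-127311786, minus strand), the methionyl-tRNA synthetase, was split in the opposite direction, with 1415, 1352 and 1296 in +/+, 1624, 1329 and 1219 in ep/ep and 2452, 1208 and 2508 in ha/ha mice. Its log2 fold change was 0.53 (SE 0.26, adjusted p = 0.275), and ha/ha mouse 2 had the lowest value of the 9 hearts while mice 1 and 3 had the highest. The 3′ end of Mars overlaps that of Ddit3, an ATF4 target on the other strand, by 68 bases, and reads were counted by strand. In all, 19 of the 31 members share part of their span with another annotated gene. Some of these genes lie on the same strand, such as Exosc6 with Aars (1326 bases) and Gm16074 with Mthfd1l (444 bases). The part of such overlaps in the values was not tested. The other members of the complex differed less, with log2 fold changes of 0.02 for Kars, 0.09 for Lars, -0.11 for Qars and -0.14 for Rars.

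Outside the complex, Aars (chr8:111033144-111057664, plus strand), the alanyl-tRNA synthetase, had 3009.6, 2844 and 2755 in +/+, 2820.3, 2729.6 and 3041 in ep/ep and 2045, 2621 and 2187 in ha/ha mice. Every ha/ha heart lay below all 6 others, with a log2 fold change against +/+ of -0.34 (SE 0.12, adjusted p = 0.213). Tars (chr15:11382301-11399665, minus strand), for threonine, had 1409.7, 1456 and 1225 in +/+, 1072, 1280.4 and 1480.3 in ep/ep and 996, 1189.9 and 879.7 in ha/ha mice. Its ha/ha hearts lay below the +/+ hearts, with a log2 fold change of -0.42 (SE 0.16, adjusted p = 0.220), but overlapped those of ep/ep mice. Hars (chr18:36766528-36783205, minus strand), for histidine, had 1326, 1288 and 1323 in +/+, 1241, 1245 and 1246 in ep/ep and 1040.0, 1268 and 1053 in ha/ha mice. The ha/ha and the ep/ep hearts both lay below the +/+ hearts, at log2 fold changes of -0.23 (SE 0.11, adjusted p = 0.256) and -0.08 (SE 0.11, adjusted p = 1.0). Cars (chr7:143557230-143600090, minus strand), for cysteine, had 759.5, 642 and 709 in +/+, 777, 634 and 669 in ep/ep and 941, 779 and 1089 in ha/ha mice. It was higher in every ha/ha heart than in the 6 others, although ha/ha mouse 2 exceeded the highest of them by less than the worth of 1 read, and its log2 fold change was 0.40 (SE 0.15, adjusted p = 0.220). Sars and Nars, for serine and asparagine, lay lower in all ha/ha hearts, with log2 fold changes of -0.30 and -0.15. Vars, for valine, showed the same split as Mars, with 1725, 1075 and 1559.5 in ha/ha against 1318, 1134 and 1231 in +/+ hearts. The genes of both phenylalanyl subunits lay on opposite sides in mice 1 and 3, which had the lowest Farsb and the highest Farsa values of the 9 hearts. The remaining 3, Gars, Wars and Yars, had log2 fold changes of -0.07, 0.19 and -0.02.

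**Figure D1:**
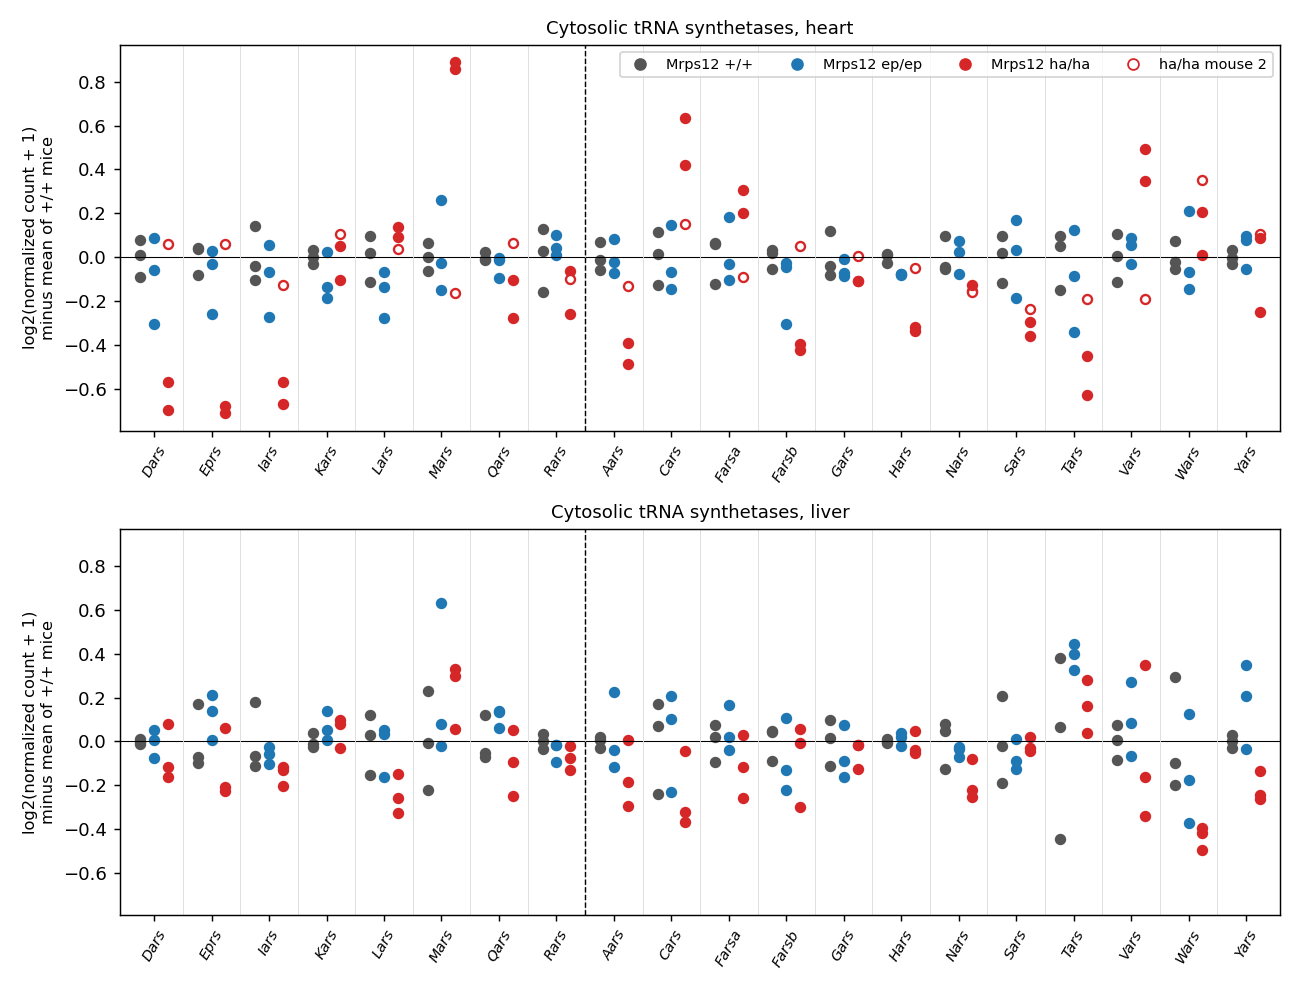
Each point is 1 mouse, plotted as log2(normalised count + 1) minus the mean of the 3 +/+ mice, for the 20 cytosolic synthetases in the heart (top) and the liver (bottom), with genes left of the dashed line belonging to the multi-synthetase complex. In the heart panel ha/ha mouse 2 (open circle) lies apart from ha/ha mice 1 and 3 for Dars, Eprs, Mars, Farsb and Vars, whereas in the liver panel most genes spread by less than 0.5 in either direction.

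The split of ha/ha mouse 2 from mice 1 and 3 can be counted. Over the 31 members, 12 had the hearts of ha/ha mice 1 and 3 both below all 6 +/+ and ep/ep hearts (38.7%, against 22.6% of all genes tested), and mouse 2 joined them for 4 (Aars, Nars, Sars and Pycr1; 12.9%, against 4.63%). Another 5 had mice 1 and 3 both above all 6 (16.1%, against 21.3%), and mouse 2 joined them for 2 (Cars and Mthfd1l; 6.45%, against 5.52%). For Pycr1 and Cars mouse 2 lay beyond the 6 others by less than the worth of 1 read. Mice 1 and 3 also shared a trend with the base composition of transcripts, and mouse 2 did not: with genes ranked by GC content and split into 5 groups, the median log2 deviation from +/+ hearts ran from -0.11 in the lowest group to 0.17 in the highest in mouse 1, from -0.18 to 0.22 in mouse 3 and from -0.01 to 0.01 in mouse 2. Dars, Eprs and Rars are in the group with the lowest GC content, Mars, Cars, Farsa, Sars, Wars, Phgdh and Psph in the one next to the highest, and Vars, Shmt2, Aldh18a1 and Pycr1 in the highest. In mice 1 and 3 the median was -0.14 and -0.14 in the second lowest group and -0.08 and -0.06 in the middle group. Of the 12 members below all 6 in these mice, Farsb, Gars, Nars and Tars are in the second lowest group. Aars, Hars, Iars and Qars are in the middle group. On the side opposite to the median of their groups lay Sars and Pycr1, which were below the 6 other hearts, and Mthfd1l, which was above. The erythroid transcripts given above separate the same mice, and mouse 2 had the lowest depth. The part of base composition, blood and depth in the split was not tested beyond the fit that removes the GC trend.

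When ha/ha mouse 2 was left out of the heart fit, 11 of the 31 members were called by limma. The 7 that lay lower were all synthetases (22.6% of the members, against 14.8% of all genes): Eprs at -0.70 (SE 0.10, adjusted p = 0.00424), Dars at -0.63 (SE 0.12, adjusted p = 0.00923) and Iars at -0.62 (SE 0.12, adjusted p = 0.00879), and with smaller log2 fold changes Tars (-0.54), Aars (-0.44), Farsb (-0.41) and Hars (-0.33). The 4 that lay higher were (12.9%, against 12.2% of all genes): Mthfd1l at 1.63 (SE 0.35, adjusted p = 0.0122), Mars at 0.87 (SE 0.12, adjusted p = 0.00388), and Cars and Vars at 0.53 and 0.42. Without that mouse, then, 3 of the 8 synthetases of the complex were called lower and 1 higher. With the GC trend also removed, a setting added after the data were seen, 10 members remained past the threshold, 7 lower (against 15.4% of all genes) and 3 higher (9.68% of the members, against 9.97%). These 10 were those of the fit without mouse 2 other than Vars, whose log2 fold change went from 0.42 to 0.15 (adjusted p = 0.376). Array weights, which keep mouse 2 at a low weight, gave 13 members, 9 lower (against 18.6%) and 4 higher (against 16.1%). Leaving out ha/ha mouse 1 or 3 instead gave 0 calls. Whether ha/ha mouse 2 or the other pair is the usual state of an ha/ha heart cannot be told from 3 mice.

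**Figure D2:**
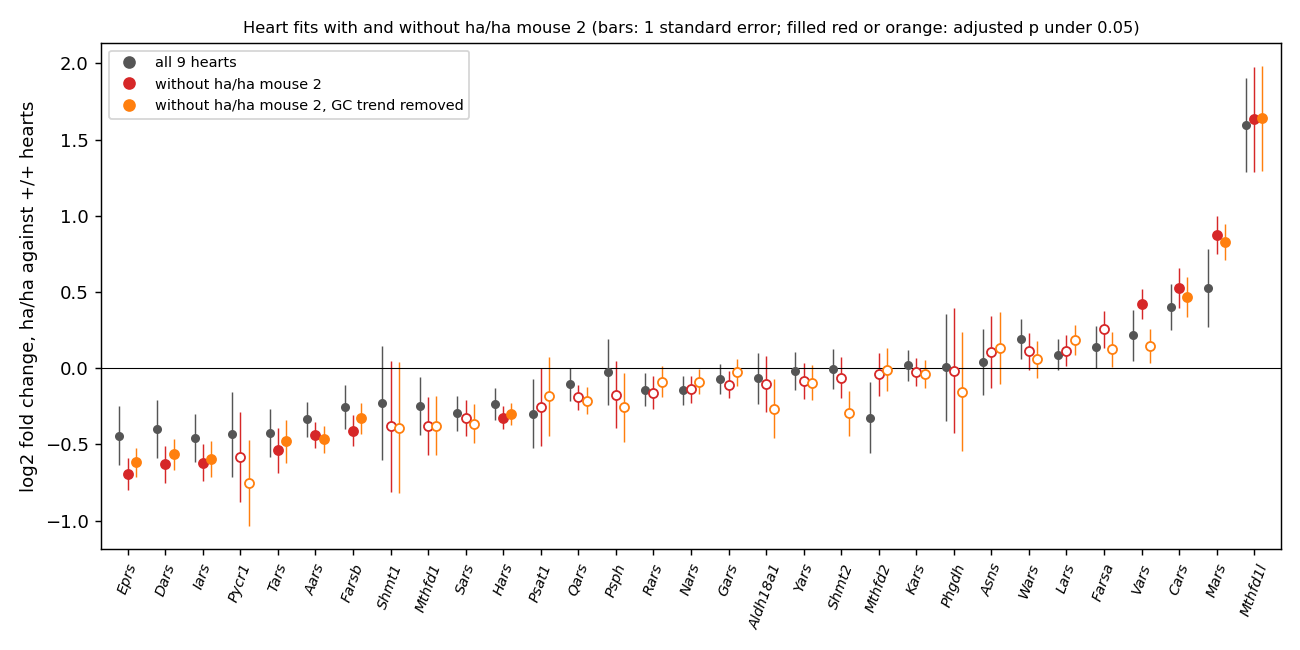
Log2 fold changes of the 31 members in ha/ha against +/+ hearts, with bars of 1 standard error, from the fit of all 9 hearts (grey), without ha/ha mouse 2 (red) and without it after removal of the GC trend (orange), where filled red or orange points have an adjusted p under 0.05. Eprs, Dars and Iars at the left and Mars and Mthfd1l at the right lie past the threshold in both fits without mouse 2, and Vars only before the GC trend was removed.

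The metabolic enzymes of ha/ha hearts showed 1 large difference. Mthfd1l (chr10:3973118-4167081, plus strand) had 16.4, 21.6 and 32.1 in +/+, 36.7, 41.8 and 30.9 in ep/ep and 69.9, 66.4 and 74.0 in ha/ha mice. Each ha/ha heart, mouse 2 included, held more than any other heart, and the log2 fold change was 1.59 (SE 0.31, adjusted p = 0.144). The transcript is scarce in this tissue, with 19 reads in the mouse with fewest. Mthfd2, which works upstream of it in the mitochondrion and is a marker of the mitochondrial stress response, did not follow, with 231, 194 and 201 in +/+, 217, 214 and 211 in ep/ep and 209.8, 112 and 194 in ha/ha mice. Its groups overlapped, and its low value was that of ha/ha mouse 2. Pycr1 (chr11:120635712-120643769, minus strand), which makes the last step to proline in the mitochondrion, had 69.8, 70.9 and 68.5 in +/+, 64.4, 115 and 69.9 in ep/ep and 51.5, 63.4 and 41.5 in ha/ha mice. It was lower in each ha/ha heart than in all others, with a log2 fold change against +/+ of -0.43 (SE 0.28, adjusted p = 0.376). However, ha/ha mouse 2 lay below the lowest of the others, ep/ep mouse 1, by less than the worth of 1 read. Aldh18a1, the enzyme before it in that pathway, had 469, 382 and 311 in +/+, 468, 521 and 500.4 in ep/ep and 324, 384 and 390.0 in ha/ha mice, and the ha/ha and +/+ hearts overlapped.

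Asparagine synthetase and the enzymes of serine synthesis, which are known ATF4 targets, overlapped between ha/ha and +/+ hearts. Asns (chr6:7675169-7693254, minus strand), asparagine synthetase, had 125, 89.1 and 118 in +/+, 142, 142 and 101 in ep/ep and 119.6, 103 and 117 in ha/ha mice, a log2 fold change of 0.04 (SE 0.22, adjusted p = 0.923). Phgdh, the first enzyme of serine synthesis, had 45.6, 79.6 and 106 in +/+, 59.4, 88.7 and 49.9 in ep/ep and 58.9, 75.5 and 87.8 in ha/ha mice, and the range of its +/+ mice covered both mutants. Psat1, the second enzyme, had 133, 177 and 179 in +/+, 151, 206 and 131 in ep/ep and 157, 124 and 116 in ha/ha mice. The ha/ha values were 157 or less and the +/+ values ran from 133 to 179, so the groups overlapped. Psph, the third, had a mean of 174 ± 36.6 in ha/ha and 176 ± 23.4 in +/+ hearts (SD, n = 3). The folate enzymes with higher levels were also close to the controls, at log2 fold changes of -0.01 for mitochondrial Shmt2, -0.23 for cytosolic Shmt1 and -0.25 for cytosolic Mthfd1.

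**Figure D3:**
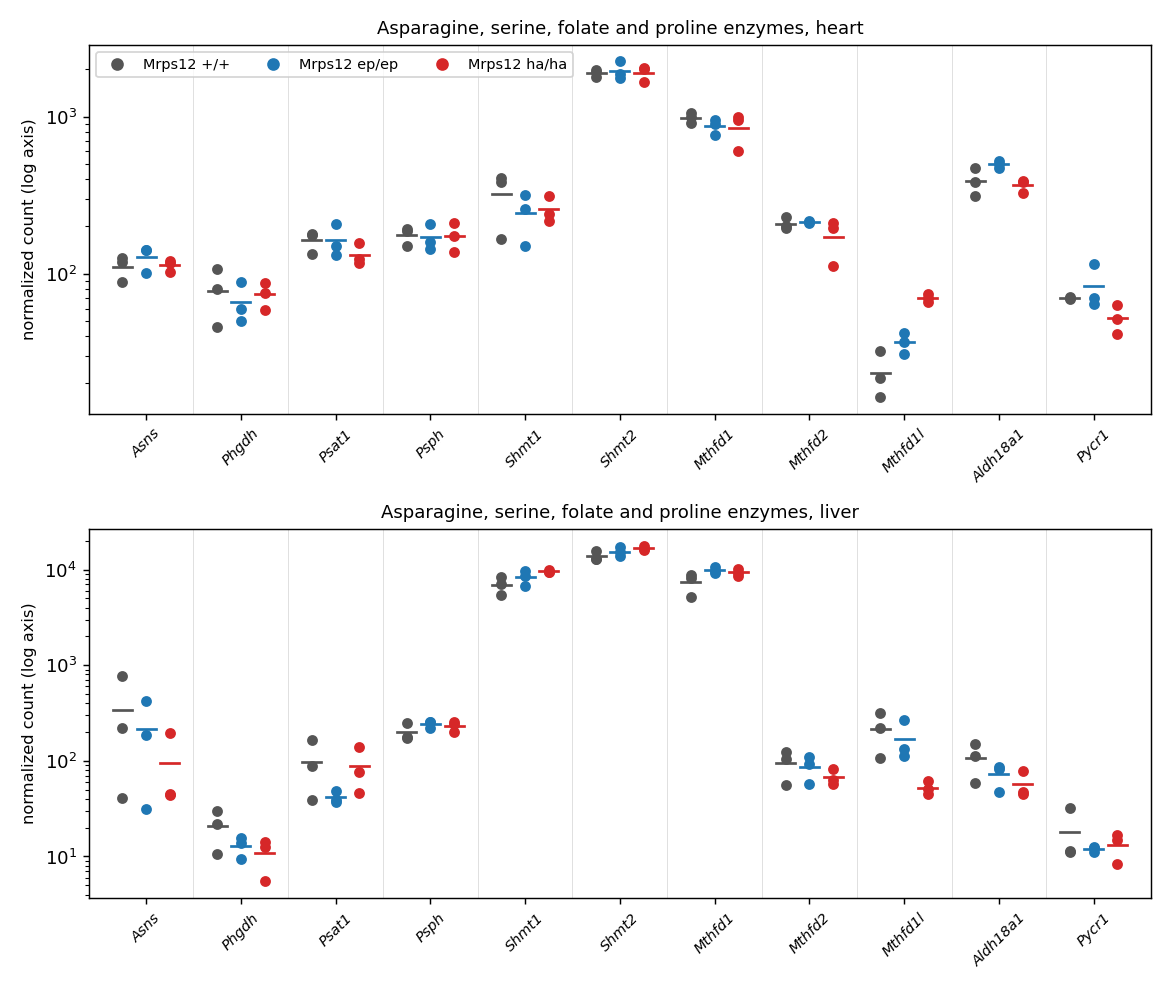
Normalised counts on a log axis of the 11 enzymes of asparagine, serine, folate and proline metabolism in each mouse, with short lines at the genotype means, in the heart (top) and the liver (bottom). The 3 ha/ha points of Mthfd1l lie above the 6 others in the heart and below them in the liver, and Asns in the liver spreads from 31.1 to 768.

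Among related genes that are not members, 86 of 89 on the other role lists were tested in the heart and 0 were called in ha/ha against +/+ hearts by limma, with 11 at an unadjusted p under 0.05 (12.8%, against 19.7% of all genes). Of the 22 tested genes of ATF4 and its other targets, 3 lay higher in all ha/ha hearts (13.6%, against 11.1% of all genes) and 1 lower (4.55%, against 10.0%): Trib3 (0.96), Ddit3 (0.80) and Chac1 (0.58) were higher, and Atf3 (-1.53, adjusted p = 0.0935) was lower. Ddit3, which encodes the stress factor CHOP and neighbours Mars, had 678, 652 and 648 in +/+, 828, 676 and 686 in ep/ep and 1373, 963 and 1138 in ha/ha mice. Atf4 itself had 4420.2, 4123 and 4201 in +/+, 4506, 4035 and 4094 in ep/ep and 4166, 3902 and 5038 in ha/ha mice, a log2 fold change of 0.03. Of the 17 mitochondrial synthetases, 4 lay lower in all ha/ha hearts (23.5%, against 10.0%), namely Mars2 (-0.48), Wars2 (-0.47), Ears2 (-0.25) and Pars2 (-0.21), and 0 higher. Of the 15 tested genes on the other folate list, Atic, a purine synthesis gene that uses formyl-folate, lay lower in all ha/ha hearts (-0.66). Of 6 scaffold and accessory genes, Eef1e1, a scaffold of the complex, lay lower (-0.61). Of the 12 methionine cycle genes, Mat2a lay lower (-0.25). Atic, Eef1e1 and Mat2a were each the only gene of their list to do so, at 6.67%, 16.7% and 8.33%, against 10.0% of all genes. None of the genes named in this paragraph had an adjusted p under 0.05 with all 9 hearts.

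In ep/ep hearts the members were close to the controls. Against +/+ hearts, which are the same mice as in the comparison above, 14 were fitted higher and 17 lower, with a median of -0.02 (-0.01 over all genes). By limma 0 members were called (0.0% of all genes), with 1 at an unadjusted p under 0.05 (3.23%, against 1.69%), and 0 by limma-voom. That 1 was Aldh18a1, with 468, 521 and 500.4 in ep/ep against 469, 382 and 311 in +/+ hearts. Its log2 fold change was 0.38 (SE 0.17, adjusted p = 1.0), and the groups overlapped because +/+ mouse 1 had 469. Hars was the only member whose groups did not overlap, lower in 1 of 31 (3.23%, against 3.64%), with 0 higher (against 4.4%). Mthfd1l stood between the other groups, with a log2 fold change of 0.66 (SE 0.31, adjusted p = 1.0) and 1 ep/ep heart inside the +/+ range. Of the other role lists, 0 of the 86 tested genes were called by limma, with 1 at an unadjusted p under 0.05 (1.16%, against 1.69%), and 1 lay higher (1.16%, against 4.4%) and 7 lower (8.14%, against 3.64%) without overlap. Atf3 (-0.65) lay lower and Trib3 (0.31) higher in every ep/ep heart, and Ears2, Dtd2, Fpgs, Gart, Mat2a and Mat2b lay lower, at -0.28 (Fpgs) to -0.11 (Gart).

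Set directly against ep/ep hearts, the largest differences among members without overlap were in Mthfd1l and in both proline enzymes. Mars, whose groups overlapped, stood at 0.50. Mthfd1l was higher, at 0.93 (SE 0.31, adjusted p = 0.243), and Pycr1 and Aldh18a1 lower, at -0.63 (SE 0.28, adjusted p = 0.277) and -0.44 (SE 0.17, adjusted p = 0.252), each in all ha/ha against all ep/ep hearts. For Pycr1 the nearest hearts of these genotypes differed by less than the worth of 1 read in ha/ha mouse 2. By limma 0 members were called (0.0249% of all genes), with 8 at an unadjusted p under 0.05 (25.8% of the members, against 17.9%), and 0 by limma-voom. The median was -0.07, against -0.02 over all genes. The groups did not overlap in 7 members that lay lower (22.6%, against 7.82%), which were Pycr1, Aldh18a1, Mthfd2, Aars, Sars, Rars and Nars, and in 3 that lay higher (9.68%, against 8.77%), which were Mthfd1l, Cars and Lars. For Mthfd2 the nearest hearts were ha/ha mouse 1 (209.8) and ep/ep mouse 3 (210.7). They differed by less than the worth of 1 read in ha/ha mouse 1 (1.84). Without ha/ha mouse 2 the fit called 8 members, with Aars, Dars, Eprs, Hars and Iars lower (16.1%, against 12.9%) and Mars, Cars and Vars higher (against 10.4%). With the GC trend also removed it called 8, of which Aars, Dars, Eprs, Iars and Pycr1 were lower (against 13.0%) and Cars, Mars and Lars higher (against 7.67%). Array weights called 16, 10 lower (against 20.9%) and 6 higher (against 18.4%). Of the other role lists, 5 of 86 genes lay higher (5.81%, against 8.77%) and 2 lower (2.33%, against 7.82%) in all ha/ha hearts, Fpgs (0.61), Ddit3 (0.66), Trib3 (0.65), Chac1 (0.41) and Mthfd2l (0.43) being higher and Atf3 (-0.88) and Atic (-0.54) lower, with 0 called by limma and 10 at an unadjusted p under 0.05 (11.6%, against 17.9%).

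In ha/ha livers the largest difference was again in Mthfd1l, but downwards, to 0.244 of the +/+ mean. The cytosolic and mitochondrial serine hydroxymethyltransferases, Shmt1 and Shmt2, lay higher in every ha/ha liver, and the synthetases Wars, Yars and Iars lay lower. Against +/+ livers 24 members were fitted lower and 7 higher, with a median of -0.10 (-0.02 over the 15314 genes tested). By limma 0 members were called (0.00653% of all genes, lowest adjusted p of a member 0.134). At an unadjusted p under 0.05 there were 5 (Mthfd1l, Shmt1, Shmt2, Wars and Lars; 16.1%, against 14.1% of all genes), and limma-voom called 0. The groups did not overlap in 4 members that lay lower (12.9%, against 9.81%) and in 2 that lay higher (6.45%, against 10.0%), shares near those of all genes.

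Mthfd1l in the liver had 221, 107 and 318 in +/+, 265, 111 and 133 in ep/ep and 61.9, 45.0 and 50.9 in ha/ha mice. The 3 ha/ha livers lay below all 6 others, with a log2 fold change of -1.89 (SE 0.43, adjusted p = 0.134). The +/+ and ep/ep livers were themselves uneven, from 107 to 318. Without +/+ mouse 2, the lowest of the controls, the log2 fold change became -2.32 (SE 0.38, adjusted p = 0.0483 by limma). Mthfd1l was then the 1 member called, with 0.588% of all genes called in that fit. Without +/+ mouse 3, the liver with the acute phase transcripts, it was -1.54. Shmt1 (chr11:60788104-60811718, minus strand) had 7038, 8377 and 5373 in +/+, 6671, 9738 and 8523 in ep/ep and 9370.2, 9971 and 9526 in ha/ha mice. The ha/ha livers lay above the +/+ livers and close together, with a log2 fold change of 0.50 (SE 0.18, adjusted p = 0.266), which was 0.33 without +/+ mouse 3, the lowest of the 9 livers. Shmt2 (chr10:127517123-127522444, minus strand) had 13037, 15813 and 13016 in +/+, 13787, 17049 and 15232 in ep/ep and 16225, 17798 and 16371 in ha/ha mice, and its log2 fold change was 0.27 (SE 0.12, adjusted p = 0.340), or 0.23 without +/+ mouse 3. Mthfd1, the cytosolic partner of Shmt1, had 8237, 8759.8 and 5218 in +/+, 9295, 9593 and 10624 in ep/ep and 8675, 10196 and 9194 in ha/ha mice. The ha/ha and +/+ livers overlapped through +/+ mouse 2, and +/+ mouse 3 was again the lowest.

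Asns and some of its fellow ATF4 targets varied strongly between livers of 1 genotype. Asns had 768, 41.2 and 219 in +/+, 187, 31.1 and 426 in ep/ep and 45.2, 43.7 and 197 in ha/ha mice. A pair of ha/ha livers and 1 liver of each other genotype were at 45.2 or less, and the next value was 187, so that the log2 fold change of -1.38 (adjusted p = 0.632) lies inside the spread between mice. The same 4 livers (+/+ mouse 2, ep/ep mouse 2 and ha/ha mice 1 and 2) were also the lowest for Mthfd2 and for Aldh18a1. Mthfd2 had 123, 55.8 and 104 in +/+, 111, 57.1 and 93.2 in ep/ep and 57.1, 62.8 and 82.1 in ha/ha mice. Aldh18a1 had 149.7, 58.2 and 113 in +/+, 83.1, 47.0 and 86.6 in ep/ep and 45.2, 47.1 and 79.0 in ha/ha mice, and its log2 fold change was -0.84 (SE 0.41, adjusted p = 0.394). These 3 genes thus ranked the livers in a way that crosses the genotypes. Phgdh was scarce in the liver, at 30.1, 21.8 and 10.6 in +/+, 9.4, 13.7 and 15.5 in ep/ep and 14.3, 5.5 and 12.5 in ha/ha mice, with 6 reads in the mouse with fewest. Psat1 had 87.5, 38.8 and 166 in +/+, 39.2, 36.9 and 48.8 in ep/ep and 76.2, 46.4 and 139 in ha/ha mice. The highest value of Psat1 came from +/+ mouse 3 and the lowest from ep/ep mouse 2, and the ep/ep livers, at 48.8 or less, overlapped both other groups. Pycr1 was near the limit of the test, with 11.2, 11.3 and 31.8 in +/+, 12.5, 12.3 and 11.1 in ep/ep and 16.7, 15.0 and 8.3 in ha/ha mice and as few as 5 reads. Psph differed less, at 201 ± 43.6 in +/+ and 233 ± 27.5 in ha/ha livers (SD, n = 3).

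The synthetases of ha/ha livers differed by little. Wars (chr12:108860030-108894174, minus strand), the tryptophanyl-tRNA synthetase and an interferon-inducible gene, had 1261, 897 and 959.6 in +/+, 795, 1121 and 910.0 in ep/ep and 728, 782 and 770.4 in ha/ha mice. Its ha/ha values lay close together below all others, with a log2 fold change of -0.44 (SE 0.16, adjusted p = 0.283). Yars (chr4:129189760-129219607, plus strand), for tyrosine, had 1375, 1401 and 1343 in +/+, 1339, 1749 and 1583 in ep/ep and 1145, 1248 and 1159 in ha/ha mice. It too was below all 6 others in each ha/ha liver, with a log2 fold change of -0.21 (SE 0.11, adjusted p = 0.410). Iars had 2297, 1938 and 1874 in +/+, 1992, 1950.0 and 1889 in ep/ep and 1759, 1869.5 and 1855 in ha/ha mice, a log2 fold change of -0.15. Aars had 12572, 12248 and 12683 in +/+, 11547, 14594 and 12178 in ep/ep and 10199, 12544 and 11008 in ha/ha mice, and the groups overlapped, with a log2 fold change of -0.16. Tars had 6658, 5351 and 3758 in +/+, 6413, 6965 and 6745 in ep/ep and 5258, 5722 and 6212 in ha/ha mice, with the lowest value in +/+ mouse 3. The liver values of Hars, 1676, 1699.7 and 1684 in +/+, 1730.2, 1712 and 1665 in ep/ep and 1628, 1742 and 1641 in ha/ha mice, were the most even of the members. Cars had 1932, 1799 and 1450.4 in +/+, 1842, 1977 and 1460.4 in ep/ep and 1330.4, 1661 and 1371 in ha/ha mice, a log2 fold change of -0.24 with overlapping groups, whereas it was higher in ha/ha hearts. Over the 20 synthetases the ha/ha log2 fold changes ran from -0.44 to 0.23, and their median deviations from the +/+ mean were -0.21, -0.05 and -0.11 in ha/ha mice 1, 2 and 3. The pair of ha/ha mice 1 and 3 was set apart because of the split in the hearts, and their livers need not come from the same animals. In 12 of the 31 members the livers of ha/ha mice 1 and 3 were both below all 6 +/+ and ep/ep livers (38.7%, against 6.74% of all genes tested), and mouse 2 joined them in 4 (12.9%, against 3.51%). No member had mice 1 and 3 both above all 6 (against 5.05%). The GC trend was smaller in the livers, from -0.08 to 0.07 over the same 5 groups in ha/ha mouse 1, -0.08 to 0.09 in mouse 3 and -0.03 to 0.02 in mouse 2.

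Of the related genes in the liver, 87 of 89 were tested and 0 were called by limma in ha/ha against +/+ livers, with 21 at an unadjusted p under 0.05 (24.1%, against 14.1% of all genes). Of the 23 tested genes of ATF4 and its other targets 8 lay lower in all ha/ha livers (34.8%, against 9.81% of all genes) and 1 higher (4.35%, against 10.0%), with a median of -0.30. Ddit4, a stress-induced inhibitor of mTORC1, had 3120.3, 1234 and 2315 in +/+, 2012, 1913 and 1383 in ep/ep and 562, 284 and 364 in ha/ha mice. Its log2 fold change was -2.42 (SE 0.35, adjusted p = 0.0722), and Slc38a2, an amino acid transporter, followed with -1.15. Atf4 had 6125, 5411 and 6149 in +/+, 5511, 5633 and 4270.2 in ep/ep and 3899, 3822 and 4975 in ha/ha mice, a log2 fold change of -0.49 (SE 0.14, adjusted p = 0.195). Ddit3 was at -0.71 and Trib3, the 1 that lay higher, at 0.69. Of the 15 tested genes on the other folate list 6 lay higher (40%, against 10.0%) and 1 lower (6.67%, against 9.81%): Mthfd2l, a relative of Mthfd2, was at 0.74, the folate carrier Slc19a1 at 0.53 and mitochondrial Aldh1l2 at -1.14. Prodh, which breaks proline down, lay higher, at 0.80 (SE 0.14, adjusted p = 0.0851). Pycr3, listed as Pycrl, was also higher (0.43), and with Prodh made 14.3% of the glycine, serine use and proline list (against 10.0%). Sardh (0.48), Ahcy (0.47) and Pemt (0.24) of the methionine cycle list were higher too (25%, against 10.0%). Of the mitochondrial synthetases Fars2 (0.61) and Sars2 (0.23) were higher in all ha/ha livers (11.8%, against 10.0%). Dtd1 of the scaffold and accessory genes was lower (-0.34), 16.7% of that list against 9.81% of all genes.

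In ep/ep livers the cytosolic folate enzyme Mthfd1 (chr12:76255298-76319803, plus strand) was the only member whose groups did not overlap. It lay higher, at 9295, 9593 and 10624 against 8237, 8759.8 and 5218, with a log2 fold change of 0.44 (SE 0.18, adjusted p = 0.483). Without +/+ mouse 3, whose value was far below those of the other controls, the log2 fold change was 0.21. Of the 31 members 15 were fitted higher and 16 lower, with a median of -0.01 (-0.01 over all genes). By limma 0 were called (0.00653% of all genes), with Mthfd1 as the 1 at an unadjusted p under 0.05 (3.23%, against 9.74%), and 0 by limma-voom. The count that did not overlap was 1 higher (3.23%, against 6.49%) and 0 lower (against 6.28%). The +/+ livers are the same in both comparisons. On the other role lists 0 of 87 genes were called by limma, with 17 at an unadjusted p under 0.05 (19.5%, against 9.74%), and 11 lay higher (12.6%, against 6.49%) and 2 lower (2.3%, against 6.28%) without overlap. Lower in every ep/ep liver were Aldh1l2 (-1.21) and Ppp1r15a (-0.92), and higher were, among others, the glycine decarboxylase Gldc (0.81, and 0.41 without +/+ mouse 3), Sardh (0.64), Ftcd (0.57), Slc1a4 (0.50), Aldh1l1 (0.41), Ahcy (0.37), Pycrl (0.31), Atf5 (0.30), Yars2 (0.24) and Dtd2 (0.09).

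Set against ep/ep livers, ha/ha livers lay lower in Mthfd1l, at -1.58 (SE 0.43, adjusted p = 0.417), and in 6 synthetases. These were Yars at -0.39 (SE 0.11, adjusted p = 0.417), and Wars (-0.30), Tars (-0.23), Qars (-0.21), Nars (-0.14) and Iars (-0.09). The 7 members that lay lower without overlap were 22.6% of the members (against 9.01% of all genes), and 0 lay higher (against 8.82%). Of the 31 members 25 were fitted lower and 6 higher, with a median of -0.14 (-0.00 over all genes). By limma 0 were called (0.00653%), with 2, Mthfd1l and Yars, at an unadjusted p under 0.05 (6.45%, against 8.62%), and 0 by limma-voom. Of the other role lists 6 of 87 genes lay higher (6.9%, against 8.82%) and 11 lower (12.6%, against 9.01%), with 0 called by limma and 13 at an unadjusted p under 0.05 (14.9%, against 8.62%). They included Ddit4 (-2.17), the serine dehydratase Sds (-1.41), Slc38a2 (-1.07), Sdsl (-0.67), Cbs (-0.66), Sesn2 (-0.58), Gldc (-0.48) and Dtd1 (-0.20) among those lower, and Pars2 (0.79), Slc19a1 (0.40), Eef1e1 (0.31), Mtrr (0.20) and Iars2 (0.14) among those higher.

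Set side by side, the tissues of ha/ha mice shared 1 member that lay on the same side of all controls in both. That was Iars, lower at -0.46 in the heart and -0.15 in the liver. Its highest ha/ha liver lay only just below the lowest +/+ liver, at 1874. Members lower without overlap were 22.6% in the heart (against 10.0% of all genes) and 12.9% in the liver (against 9.81%). The share of all genes lower in both tissues was not counted. Mthfd1l had the largest log2 fold change in both tissues, upwards in the heart (1.59) and downwards in the liver (-1.89). Its means in +/+ and ha/ha mice were 23.4 ± 8.0 and 70.1 ± 3.80 normalised counts in the heart and 215 ± 106 and 52.6 ± 8.58 in the liver (SD, n = 3), each within its own scale. The difference between the tissues was not tested, because their tables were normalised separately.

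**Figure D4:**
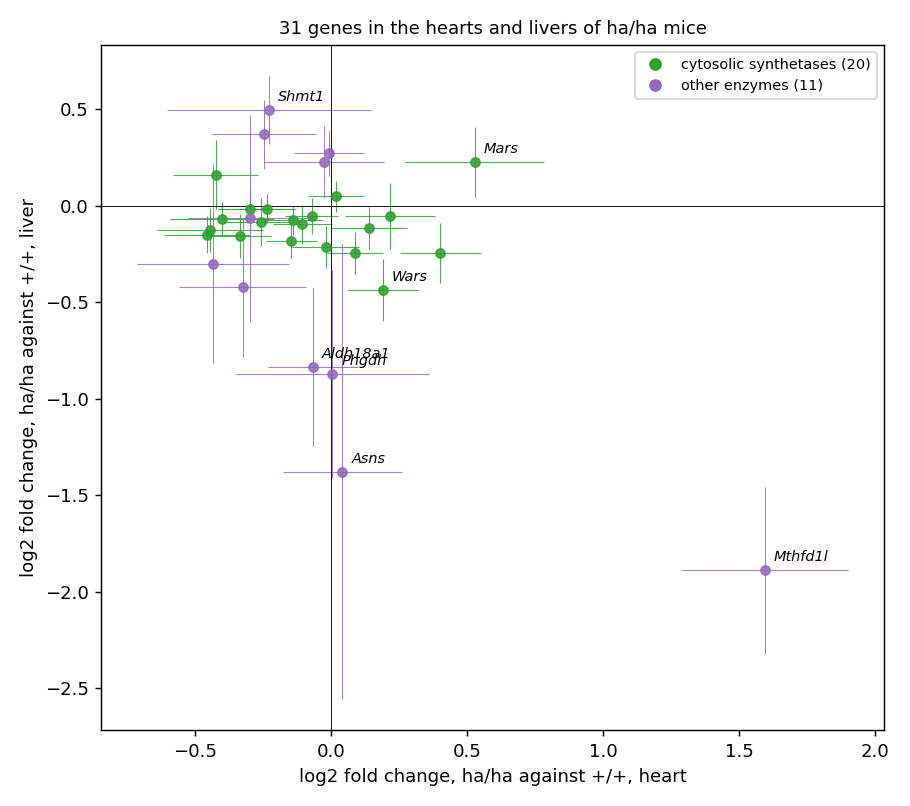
Log2 fold changes of the 31 members in ha/ha against +/+ mice, in the heart (horizontal axis) and the liver (vertical axis), with bars of 1 standard error. Mthfd1l stands alone at 1.59 in the heart and -1.89 in the liver, and the synthetases lie within -0.46 to 0.53 in the heart and -0.44 to 0.23 in the liver.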

How the data were processed

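RNA of 9 hearts and 9 livers was sequenced (54 libraries in the labels, in technical triplicate). The authors trimmed the reads (Trim Galore 0.4.1, cutadapt, FastQC 0.11.8), quantified them with Salmon 1.1.0 in stranded mode with sequence and GC bias correction on GENCODE vM21 and GRCm38.p6, left out mitochondrial transcripts and normalised the counts with DESeq2 for each tissue. The deposited values are these normalised counts, other than raw counts, in 1 column for each mouse in a tissue, and its technical libraries were taken as pooled there, which the sources do not state. The deposited tables of comparisons hold shrunken log2 fold changes and p-values and were not used. In every column 100.0% of the low values were whole multiples of 1 step (tolerance 0.1 read), which gave the depths. By their labels the 3 samples of a genotype in a tissue are separate mice.

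The log2 of the normalised count plus 1 was fitted with limma 3.58.1 in R 4.3.3 (lmFit, eBayes with an intensity trend, 3 genotypes of a tissue in one fit) for genes whose 9 mice averaged at least 10, with Benjamini-Hochberg adjustment over all tested genes and a threshold of 0.05. Fold changes are on the log2(value + 1) scale, which understates those of low genes. The comparisons of both mutants share the +/+ mice. The script was tested on simulated data. Python 3.11.15, pandas 2.3.3, numpy 2.4.6 and matplotlib 3.10.9 were used for the rest. Exon lengths and positions are those of GENCODE vM21, and promoters those of RefSeq.

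The members and the lists were chosen with earlier results of these data known, so no list is independent support. The lists were mitochondrial synthetases, scaffolds and accessory genes, other folate genes, and glycine, serine use and proline genes. Further lists were the methionine cycle, and ATF4 and its other targets. Marker lists were those of cardiomyocytes, atria, hepatocytes, the acute phase, erythroid cells, skeletal muscle, adipocytes and mesothelium. Values in every mouse are given for Asns, Phgdh, Psat1, Mthfd2 and Aars and, for each comparison, for up to 4 members with the largest log2 fold change among those whose groups do not overlap, and, chosen after their values were seen, for Eprs and Mars and in part for Dars, Vars and Psph. From other lists Atf4, Ddit3 and up to 3 such genes for each list and comparison are named, and Chac1, Pars2, Trib3 in the liver and other genes beyond these were added after their values were seen. Alternatives were other pseudocounts (0.5 and 8), filters, scalings, weights, a replicate block, limma-voom on the recovered reads, each mouse left out in turn and, added after the data were seen, removal of each mouse's trend with GC content (loess, span 0.3).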

Additional observations from a re-analysis of the deposited data

Results flagged for a closer look

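The 31 members and the 89 genes on the other role lists were looked at in every comparison. For 3 genes all mutant mice lay on one side of the controls, or of the ep/ep mice, in the heart and on the opposite side in the liver. Within 1 tissue, 3.64% to 11.1% of all genes lay on a given side without overlap, depending on the comparison. The share of all genes on opposite sides in the tissues was not counted. Mthfd1l in ha/ha against +/+ mice had log2 fold changes of 1.59 in the heart and -1.89 in the liver. Against ep/ep mice its log2 fold changes were 0.93 in the heart and -1.58 in the liver, and both comparisons use the same ha/ha mice. Ddit3 in ha/ha against +/+ mice stood at 0.80 in the heart and -0.71 in the liver. Dtd2, a gene of D-aminoacyl-tRNA removal, in ep/ep against +/+ mice stood at -0.18 in the heart and 0.0939 in the liver, each within 2 SEs of 0. The difference between tissues was not tested for any of these, since the tissue tables were normalised separately. Groups of 3 mice are too small for the outlier test, so no single mouse was assessed by it.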

How the results depend on the processing

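The number of members called stayed at 0 in ep/ep against +/+ hearts, ep/ep against +/+ livers and ha/ha against ep/ep livers under every alternative run. It depended on the heart of ha/ha mouse 2: without it 11 members were called in ha/ha against +/+ hearts and 8 in ha/ha against ep/ep hearts, 10 and 8 without it after GC trend removal, and 13 and 16 with array weights. Over the fits that leave out 1 mouse the counts ran from 0 to 11 and from 0 to 8 in these hearts and from 0 to 1 in ha/ha against +/+ livers, the 1 coming without +/+ mouse 2. Other alternatives, namely pseudocounts of 0.5 and 8, no filter, a mean of at least 50, quantile normalisation, re-centring, only the genotypes compared, limma-voom, GC trend removal with all mice and the replicate block, left the 6 counts at 0. The median of the members moved by less than its SD between mice (0.0946 in the heart and 0.0532 in the liver), within -0.18 to -0.06 in ha/ha against +/+ hearts and -0.14 to -0.06 in livers. The cause of these changes was not tested. Signs reversed for Asns, Phgdh, Psat1, Mthfd2 and Aars in comparisons whose groups overlap. With array weights Asns became 0.11 in ha/ha against ep/ep hearts and 0.68 in ep/ep against +/+ livers, Phgdh -0.0283 in ha/ha against +/+ hearts, Psat1 0.56 in ha/ha against +/+ livers, Mthfd2 0.25 in ep/ep against +/+ livers, and Aars 0.0736 and -0.0064 in ep/ep against +/+ hearts and livers. With quantile normalisation Psat1 became 0.0592 in ha/ha against +/+ livers, Mthfd2 0.0072 in ep/ep against +/+ livers and Aars 0.0126 in ep/ep against +/+ hearts. Phgdh in ha/ha against +/+ hearts became -0.0014 with a pseudocount of 8, -0.0871 with GC trend removal, with or without the replicate block, and -0.15 with it and without ha/ha mouse 2. Aars in ep/ep against +/+ hearts became 0.0008 in each of these GC fits, and Psat1 there 0.0151 by limma-voom. With 1 mouse left out the ranges crossed or moved as follows: in ep/ep against +/+ hearts Aars -0.0475 to 0.0314, Mthfd2 -0.0088 to 0.12, Phgdh -0.51 to 0.0869 and Psat1 -0.20 to 0.13; in ha/ha against +/+ hearts Asns -0.11 to 0.14 and Phgdh -0.33 to 0.27; in ep/ep against +/+ livers Aars -0.0760 to 0.0929, Asns -1.59 to 0.56 and Mthfd2 -0.43 to 0.18; in livers Psat1 -0.60 to 0.43 in ha/ha against +/+ and Phgdh -0.54 to 0.0783 in ha/ha against ep/ep mice. The labels do not say whether the replicate numbers pair the mice, and 3 mice per genotype are too few to settle it. Same-numbered mice correlated by -0.23 to 0.58 in the heart and -0.13 to 0.16 in the liver, with 2 of 9 pairs above 0.1 in each. The 2 highest heart correlations were those of +/+ with ep/ep mouse 1 (0.58) and mouse 2 (0.41). In all, 4 of 9 hearts and 3 of 9 livers correlated best with their own number. With the replicate block 0 members were called in each of the 6 comparisons, and of 135 single-gene results 1, Ddit4 in ha/ha against +/+ livers (adjusted p = 0.0427 by limma), gained a call and 0 lost one. Over all alternatives, a named gene gained a call in a comparison 106 times, with genes counted again under each alternative, of which 37 came with array weights, 30 without the heart of ha/ha mouse 2 and 29 without it after GC trend removal. An edgeR fit listed among the alternatives was not run. Depth limits the low genes most: in the heart of ha/ha mouse 2 a step of 1 read is 3.02 normalised counts.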
